A study of Mus musculus with 6 samples.

Results

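The cyclin-dependent kinase (CDK) inhibitors of the Cdkn family were examined in 6 mouse medulloblastomas, tumours of the cerebellum, as log2 expression levels from Affymetrix whole-transcript arrays. The family was given by gene symbol and holds 8 genes (Cdkn1a, Cdkn1b, Cdkn1c, Cdkn2a, Cdkn2b, Cdkn2c, Cdkn2d and Cdkn3) of the 22180 genes tested. The feature that stands for a gene was selected on its mean level over the 6 arrays, the highest being kept, but each of the 8 genes had only 1 feature with a single gene symbol, so that choice did not act on the family. The list was drawn up with earlier results of these arrays known, so its counts are a description of these tumours.

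In all 6 animals SmoM2, an active form of the Hedgehog transducer Smoothened, was switched on by a tamoxifen-dependent Cre recombinase (CreERT2) under Math1 (Atoh1) control, which acts in granule neuron progenitors. The 3 wild type tumours had the genotype Math1Cre::SmoM2Fl/+, and the 3 knockout tumours had Math1Cre::CrebbpFl/FlSmoM2Fl/+, so that the same recombinase also removed both alleles of Crebbp, which encodes a histone acetyltransferase. Tamoxifen (1 mg) was given at postnatal day 5 and tumours were taken at postnatal day 60 from animals with visible growth, which selects for tumours that had formed. The age label of the samples reads postnatal day 5 and was taken as the day of induction. Cells of the tumour outside the Math1 lineage keep Crebbp, and the labels name no separate animals or litters for the tumours, so errors and p-values measure the spread between these samples only. In bulk tissue, fewer cells of a type and less RNA per cell cannot be told apart.

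CDK inhibitors restrain the kinases that drive cells from one phase of division to the next. The Cip/Kip proteins p21 (Cdkn1a), p27 (Cdkn1b) and p57 (Cdkn1c) bind several cyclin-CDK complexes, while the Ink4 proteins p16 (Cdkn2a), p15 (Cdkn2b), p18 (Cdkn2c) and p19Ink4d (Cdkn2d) bind CDK4 and CDK6 and keep them from cyclin D. Cdkn3 differs from both families: it encodes a phosphatase that removes an activating phosphate from CDKs and is itself made mainly in dividing cells. Hedgehog signalling holds granule neuron progenitors in cycle through cyclin D and Mycn, and loss of Cdkn1b or Cdkn2c is known to favour medulloblastoma in mice with an active Hedgehog pathway.

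RefSeq start sites (GRCm38.p6) gave 10 promoter windows for 7 of the genes, each with 250 bases before and 50 bases from the start; Cdkn1c had no entry. The 5 windows below, read 5' to 3' on the strand of the gene, belong to Cdkn1a and Cdkn2c, which had the largest differences between the groups, to Cdkn2b, which holds a full CREB site, and to Cdkn3, whose levels barely differed. They are shown because CREBBP is a coactivator of CREB and of p53, and Cdkn1a is a known target of p53. Capitals mark the CREB full site TGACGTCA, its shorter core TGACG, and a pair of CATG cores 6 bases apart, the arrangement of a p53 site. The windows lie at chr17:29090729-29091028 and chr17:29093519-29093818 on the plus strand (Cdkn1a, upstream and downstream start), at chr4:89310983-89311282 and chr4:109666707-109667006 on the minus strand (Cdkn2b and Cdkn2c, upstream start) and at chr14:46760291-46760590 on the plus strand (Cdkn3).
Cdkn1a upstream start: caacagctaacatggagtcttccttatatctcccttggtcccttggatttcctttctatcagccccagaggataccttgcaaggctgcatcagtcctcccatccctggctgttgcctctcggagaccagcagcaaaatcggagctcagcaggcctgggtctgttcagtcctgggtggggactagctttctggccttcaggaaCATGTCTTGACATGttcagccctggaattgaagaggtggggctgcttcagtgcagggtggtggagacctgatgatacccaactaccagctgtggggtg
Cdkn1a downstream start: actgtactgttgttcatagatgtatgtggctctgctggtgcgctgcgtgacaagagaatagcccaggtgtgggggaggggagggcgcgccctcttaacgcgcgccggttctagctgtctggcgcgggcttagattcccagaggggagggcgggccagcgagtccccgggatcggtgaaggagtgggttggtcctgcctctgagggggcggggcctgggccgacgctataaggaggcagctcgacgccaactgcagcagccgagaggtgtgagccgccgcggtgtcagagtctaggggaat
Cdkn2b: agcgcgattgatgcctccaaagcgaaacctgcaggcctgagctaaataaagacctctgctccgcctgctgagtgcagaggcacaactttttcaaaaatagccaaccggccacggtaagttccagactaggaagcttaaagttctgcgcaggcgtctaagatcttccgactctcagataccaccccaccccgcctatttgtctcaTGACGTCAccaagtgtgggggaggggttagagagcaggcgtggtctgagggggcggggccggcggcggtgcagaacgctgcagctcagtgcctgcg
Cdkn2c upstream start: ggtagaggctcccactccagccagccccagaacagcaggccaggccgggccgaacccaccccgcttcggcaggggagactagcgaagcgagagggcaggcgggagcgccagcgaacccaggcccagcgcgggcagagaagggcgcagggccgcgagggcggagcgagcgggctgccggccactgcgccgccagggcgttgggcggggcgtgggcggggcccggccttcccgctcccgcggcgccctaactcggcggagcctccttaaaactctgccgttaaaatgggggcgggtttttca
Cdkn3: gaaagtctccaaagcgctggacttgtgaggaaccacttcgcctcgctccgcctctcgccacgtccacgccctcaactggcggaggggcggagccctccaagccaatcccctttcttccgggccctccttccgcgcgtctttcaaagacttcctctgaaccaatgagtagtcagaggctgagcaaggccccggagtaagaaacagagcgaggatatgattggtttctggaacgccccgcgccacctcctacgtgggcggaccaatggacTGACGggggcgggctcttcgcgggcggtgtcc

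The CATG pair stood at positions -48 to -35 of the upstream Cdkn1a start, where position 1 is the first transcribed base. On either strand, 0.712% of all 32851 RefSeq windows of this length held such a pair. The CREB full site of Cdkn2b stood at -46 to -39, and 1.79% of windows held one. The shorter core, which also lies within each full site, was found in the windows of Cdkn1b (22 to 26), Cdkn2b and Cdkn3 (19 to 23), in 3 of 10 windows of the family against 20.8% of all windows. CCAAT was found in 5 of the 10 windows (Cdkn1b, Cdkn2a, Cdkn2c, Cdkn2d and Cdkn3) against 37.4% of all windows, and Cdkn3 had 4 copies. The windows printed for Cdkn2c and for the downstream Cdkn1a start held none of the 3 marked motifs. These are matches of letters, and binding was not measured.

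The design asks how tumours of the Crebbp knockout genotype differ from those of the wild type genotype. The targeted gene Crebbp had log2 levels of 11.70 to 11.80 in wild type and 11.20 to 11.34 in knockout tumours. Its level was 1.41-fold lower in the knockout (limma adjusted p = 0.0948), so a Crebbp signal remained. The source of that signal was not tested. Xist was at 5.13 to 5.74 in wild type and 12.26 to 12.45 in knockout tumours, and the Y-linked Kdm5d was at 9.32 to 9.37 and 4.59 to 4.75, so the 3 wild type arrays carried the male pattern and the 3 knockout arrays the female pattern. The effects of genotype and of sex therefore cannot be told apart below. The progenitor marker Atoh1 was at 11.54 to 11.64 in wild type and 10.93 to 11.56 in knockout tumours, and none of the 12 progenitor markers measured lay at the level of absent sex-linked genes (4.31 to 5.74 over 12 values, from Xist in the wild type and 3 Y-linked genes in the knockout tumours). All Cdkn values, 7.30 to 11.33, also lay above that range. Levels of different features cannot be compared with each other on these arrays, so the genes are described 1 by 1.

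Of the 8 genes, 7 had lower mean levels in knockout tumours and 1, Cdkn1c, a higher one, with a median log2 change of -0.35 (knockout minus wild type) against 0.00 over all genes. None of them passed the test: 0 of 8 had a limma p-value under 0.05 after Benjamini-Hochberg adjustment over all genes, where 0.207% of all genes passed, and their adjusted p-values ran from 0.184 to 0.832. In 5 genes (Cdkn1a, Cdkn1b, Cdkn2b, Cdkn2c and Cdkn2d) every knockout value lay below every wild type value, which held for 9.43% of all genes. The same 5 genes had an unadjusted limma p under 0.05, as did 13.8% of all genes.

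**Figure D1:**
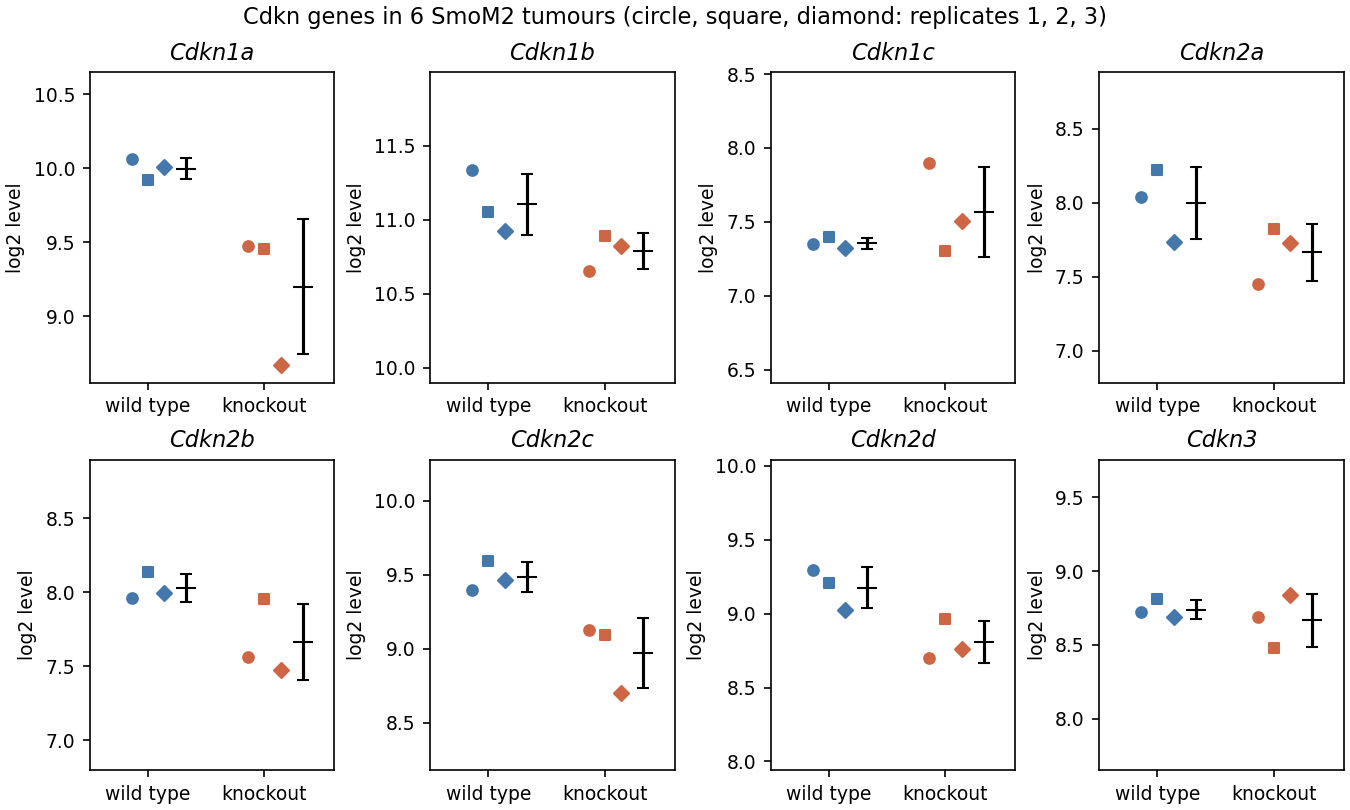
Log2 level of each Cdkn gene in 3 wild type (blue) and 3 knockout (orange) tumours, with the group mean and SD at the right of the points; each panel spans the same height on the log2 scale. The Cdkn1a points of the knockout lie at 8.67 to 9.47, below the wild type points at 9.92 to 10.06, while the Cdkn3 groups overlap.

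Cdkn1a, the p21 gene through which p53 halts the cycle, showed the largest difference in the family. Its log2 levels were 10.06, 9.92 and 10.01 in wild type replicates 1, 2 and 3 and 9.47, 9.45 and 8.67 in knockout replicates 1, 2 and 3. The wild type tumours were tightly grouped, and knockout replicate 3 lay well below the other knockout tumours. The means were 9.998 ± 0.07 and 9.20 ± 0.46 (SD, n = 3 each), a log2 change of -0.80 (SE 0.21, 95% interval -1.28 to -0.32), or 1.74-fold lower in the knockout, with a limma adjusted p of 0.184. Without knockout replicate 3 the log2 change was -0.53.

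Cdkn1b encodes p27, which accumulates as granule neuron progenitors leave the cycle. Its levels were 11.33, 11.05 and 10.93 in wild type and 10.66, 10.89 and 10.82 in knockout tumours. The groups did not overlap, but only 0.03 separated the lowest wild type from the highest knockout value. The log2 change was -0.31 (SE 0.13, 95% interval -0.61 to -0.02, limma adjusted p = 0.337), and it was -0.20 without wild type replicate 1, the highest value.

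Cdkn1c, the imprinted p57 gene, was the only member with a higher mean in knockout tumours. It had levels of 7.35, 7.40 and 7.32 in wild type and 7.90, 7.30 and 7.50 in knockout tumours. Knockout replicate 2 lay below all wild type tumours and replicate 1 well above them, so the groups overlapped. The log2 change of 0.21 (SE 0.15, 95% interval -0.13 to 0.56) had a limma adjusted p of 0.579, and it was 0.05 without knockout replicate 1 and 0.34 without knockout replicate 2. Knockout replicate 1 was also the array with the highest mean level of endothelial and pericyte markers (8.42, against 8.09 and 8.22 in the other knockout and 7.92 to 8.13 in the wild type tumours) and of fibroblast and meningeal markers (8.71, against 8.43 and 8.39 and 8.05 to 8.42). It was also highest for markers of Purkinje cells and inhibitory neurons (8.44, against 7.66 and 8.40 and 7.07 to 7.77). The part of these cell types in the Cdkn1c level was not tested.

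Cdkn2c, the p18 gene expressed in cycling granule neuron progenitors, had the second largest difference. Its levels were 9.40, 9.59 and 9.46 in wild type and 9.13, 9.09 and 8.70 in knockout tumours. As for Cdkn1a, all knockout tumours were lower and replicate 3 was the lowest. The means of 9.48 ± 0.10 and 8.97 ± 0.24 (SD, n = 3 each) gave a log2 change of -0.51 (SE 0.13, 95% interval -0.82 to -0.20), or 1.43-fold lower in the knockout, with a limma adjusted p of 0.184. Without knockout replicate 3 it was -0.38.

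Cdkn2d encodes p19Ink4d, which keeps postmitotic neurons from dividing again together with p27. Its levels were 9.29, 9.21 and 9.02 in wild type and 8.70, 8.97 and 8.76 in knockout tumours. The groups were apart by 0.05, and the spread was alike in both (SD 0.14 each, n = 3). The log2 change was -0.37 (SE 0.11, 95% interval -0.63 to -0.10, limma adjusted p = 0.238).

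Cdkn2a and Cdkn2b are neighbours on chromosome 4, and Cdkn2c lies on the same chromosome. Cdkn2a encodes p16 and, from another first exon, the p53 activator p19Arf, and its single feature does not separate these products. Cdkn2a levels were 8.04, 8.22 and 7.73 in wild type and 7.45, 7.82 and 7.73 in knockout tumours. The groups overlapped, since wild type replicate 3 lay within the knockout range. The log2 change was -0.33 (SE 0.15, 95% interval -0.68 to 0.02, limma adjusted p = 0.389), and it was -0.22 without wild type replicate 2.

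Cdkn2b, the p15 gene known for its induction by TGF-beta, had levels of 7.96, 8.14 and 7.995 in wild type and 7.56, 7.96 and 7.48 in knockout tumours. Knockout replicate 2 matched the lowest wild type tumour to within 0.0023, so the separation of the groups rests on that gap. The log2 change was -0.37 (SE 0.14, 95% interval -0.69 to -0.04, limma adjusted p = 0.311). The other neighbours of this locus, Mtap and Dmrta1, had log2 changes of -0.14 (SE 0.12) and -0.50 (SE 0.18), with adjusted p-values of 0.652 and 0.288.

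Cdkn3 had levels of 8.72, 8.81 and 8.69 in wild type and 8.69, 8.48 and 8.84 in knockout tumours. The knockout values spread on both sides of the wild type values. The log2 change of -0.07 (SE 0.11, limma adjusted p = 0.832) had a 95% interval of -0.33 to 0.19, and the value was 0.02 without knockout replicate 2.

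**Figure D2:**
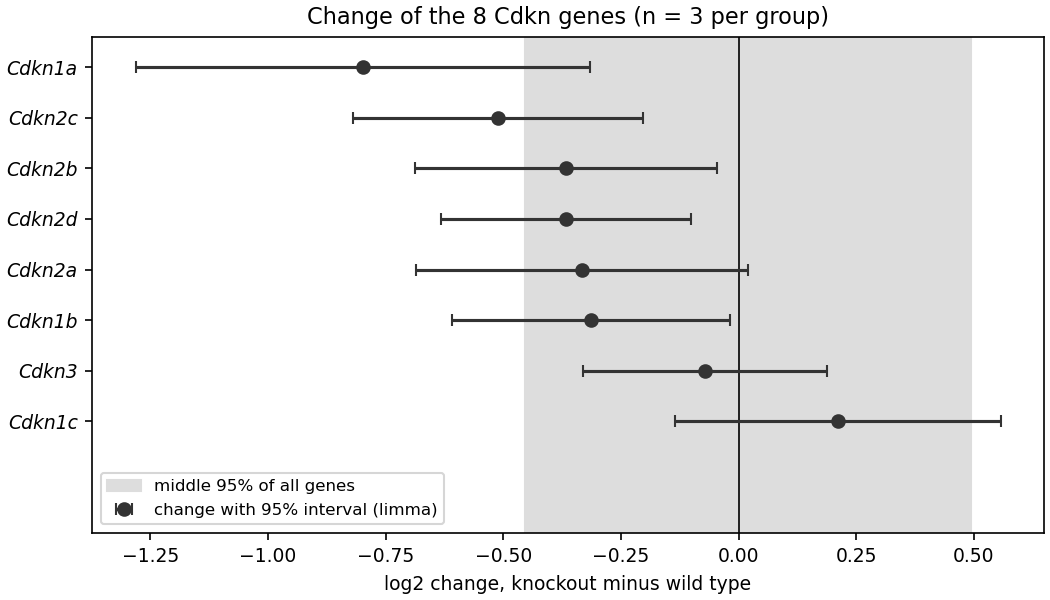
Log2 change (knockout minus wild type) of each Cdkn gene with its 95% interval from limma, ordered by size; the grey band spans the middle 95% of changes over all 22180 genes (-0.45 to 0.49). Cdkn1a (-0.80) and Cdkn2c (-0.51) lie beyond the band, and the other 6 genes lie within it.

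The genes differed in which knockout tumour was lowest. Knockout replicate 3 was lowest of the knockout tumours for Cdkn1a, Cdkn2b and Cdkn2c, replicate 1 for Cdkn1b, Cdkn2a and Cdkn2d, and replicate 2 for Cdkn1c and Cdkn3. Replicate 2 was the highest knockout tumour for 4 genes, Cdkn1b, Cdkn2a, Cdkn2b and Cdkn2d. The median of the 8 differences from the wild type mean was -0.46 in knockout replicate 1, -0.21 in replicate 2 and -0.35 in replicate 3. Among the wild type tumours, replicate 3 was lowest for 5 genes and replicate 2 highest for 5 genes.

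The distance between the profiles of any pair of genes, the root mean square difference of their log2 values after each gene's mean over the 6 arrays was removed, was smallest for Cdkn1b and Cdkn2d (0.08). Cdkn1a was nearest to Cdkn2c (0.22) and farthest from Cdkn1c (0.58). Cdkn2b lay at a similar distance from Cdkn2d (0.13), Cdkn2c (0.15) and its neighbour Cdkn2a (0.17). Each distance rests on 6 arrays and is a description.

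**Figure D3:**
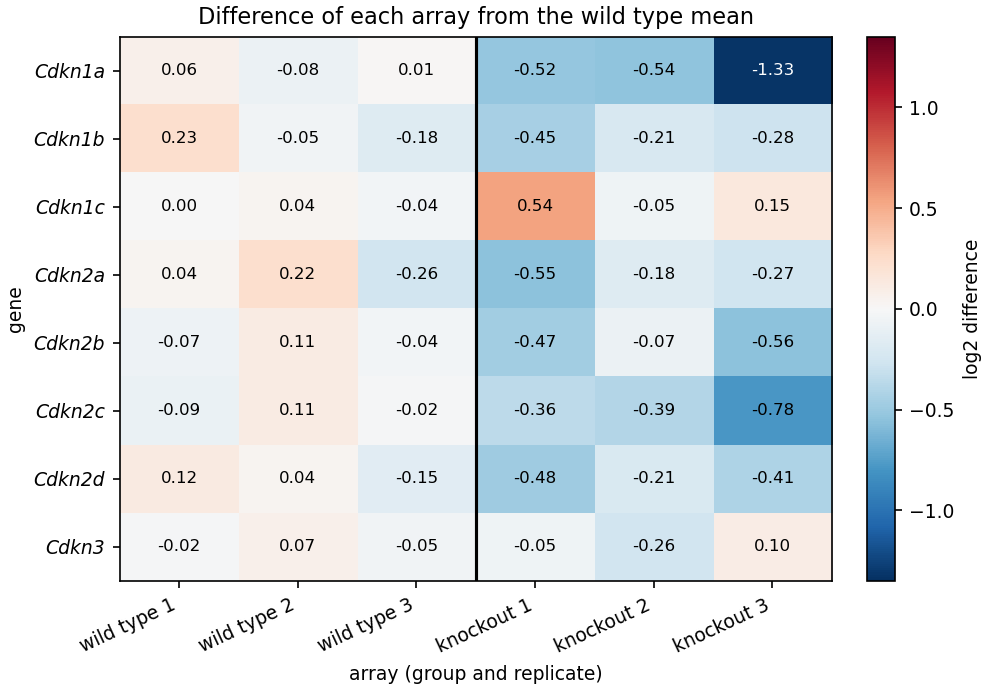
Log2 difference of each array from the wild type mean for each Cdkn gene (rows) in each tumour (columns), with the value printed in each cell. The Cip/Kip gene Cdkn1a reaches -1.33 in knockout replicate 3, and Cdkn1c stands out with 0.54 in knockout replicate 1.

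The inhibitors act on cyclins, CDKs and, through them, on RB and E2F proteins. Of 24 such genes measured, the log2 change was below 0 in 18 and above 0 in 6 (median -0.12). In limma 0 passed over all genes, while 6 had an unadjusted p under 0.05. Over all genes 13.8% had such a p, the share to read beside this count and those of the lists below. Cyclin D2 (Ccnd2), the D cyclin typical of the granule lineage, had the smallest p of the 24. Its log2 level was 12.56 ± 0.07 in wild type and 11.87 ± 0.20 in knockout tumours (SD, n = 3 each). The change was -0.69 (SE 0.12, limma adjusted p = 0.0948). Ccnd2 passed in 2 of 16 alternative fits, with the variance allowed to follow the level (limma adjusted p = 0.0331) and without knockout replicate 2 (0.0417). In the other 14 it did not pass, with limma adjusted p-values up to 0.274. Without knockout replicate 3, 15 of the 24 genes had negative changes, with a median of -0.07.

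Among the other D cyclins, Ccnd1 had a log2 change of -0.24 (SE 0.15) and Ccnd3 one of 0.41 (SE 0.16, limma adjusted p = 0.324). The kinases held by the Ink4 proteins, Cdk4 and Cdk6, had changes of 0.02 (SE 0.09) and -0.08 (SE 0.14), and Cdk2, the partner of cyclin E that p21 and p27 bind, had one of 0.11 (SE 0.09). The retinoblastoma gene Rb1 had a change of -0.15 (SE 0.09). The transcription factors E2f8 and E2f1, themselves made as cells enter S phase, had changes of -0.41 (SE 0.11) and -0.40 (SE 0.11), with adjusted p-values of 0.184 and 0.198.

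Of 11 other genes that control CDK activity, 4 had positive and 7 negative changes (median -0.02, 0 past the threshold in limma, 1 with an unadjusted p under 0.05). Mnat1, a subunit of the CDK-activating kinase, had a change of 0.27 (SE 0.09), Cdkn2aip, whose product binds p19Arf, one of -0.23 (SE 0.10), and the kinase Wee1, which inhibits CDK1, one of -0.22 (SE 0.12). All 16 measured mitosis genes had negative changes, with a median of -0.18, and 0 passed in limma while 4 had an unadjusted p under 0.05. Their mean level was 10.41 to 10.61 in wild type and 10.11 to 10.44 in knockout tumours, and the groups overlapped. Without knockout replicate 3 the median was -0.08 and 14 of the 16 changes were negative, and without wild type replicate 3 it was -0.12, again with 14 negative. Foxm1, Mki67 and Cenpf had changes of -0.54, -0.35 and -0.31 (SE 0.16, 0.10 and 0.13). Cdkn3, at -0.07, lay near the upper end of the range of this list, which ran from -0.54 to -0.06.

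Regulators of Cdkn transcription were listed next. Of 33 measured, 12 had positive and 21 negative changes, with a median of -0.05, and 0 passed in limma while 4 had an unadjusted p under 0.05. The gene with the smallest p was Crebbp itself (-0.50, SE 0.09, limma adjusted p = 0.0948). Mycn, a Hedgehog target that drives progenitor division, had a change of -0.39 (SE 0.11). Ezh2 and Suz12, subunits of the Polycomb complex that silences the Cdkn2a and Cdkn2b locus, had changes of -0.33 (SE 0.12) and -0.28 (SE 0.11), with adjusted p-values of 0.294 and 0.325. Eed, a subunit of the same complex, had a change of 0.006 (SE 0.09). The other Polycomb genes listed, Ring1, Rnf2, Bmi1 and Cbx7, had changes of -0.23, -0.14, -0.10 and -0.03. Trp53 was not analysed here.

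Of 19 measured p53 targets other than Cdkn1a, 13 had negative and 6 positive changes (median -0.09, 0 past the threshold in limma). An unadjusted limma p under 0.05 was found in 3 of the 19, against 13.8% of all genes. The pro-apoptotic Bbc3, the X-linked receptor Eda2r and the AKT inhibitor Phlda3 had changes of -0.61 (SE 0.12), -0.52 (SE 0.14) and -0.44 (SE 0.13), and in each the groups did not overlap. Mdm2, Rrm2b, Plk3, Pmaip1, Rps27l and Aen lay between -0.05 and 0.07. Over all 6 arrays Cdkn1a, at -0.80, had a larger negative change than any of these 19 genes. That ranking rests on knockout replicate 3, without which the change of Cdkn1a was -0.53. In Bbc3 the same tumour was the highest of the knockout tumours (6.93, against 6.81 and 6.90 in replicates 1 and 2). The median of the 19 was -0.17 without wild type replicate 3 and also -0.17 without knockout replicate 2.

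Genes that set the turnover of p21 and p27 were mixed (15 measured, 9 positive, 6 negative, median 0.03, 0 past the threshold in limma, 3 with an unadjusted p under 0.05). Skp2, the ubiquitin ligase subunit that marks p27 for degradation, had a change of 0.08 (SE 0.10, 95% interval -0.14 to 0.31). The kinase Akt1, which phosphorylates p21 and p27, had one of -0.50 (SE 0.11, adjusted p = 0.138), the ligase subunit Btrc one of 0.30 (SE 0.09) and Rnf123, which marks p27 for degradation in the G1 phase, one of 0.30 (SE 0.09). The median of this list was -0.01 without wild type replicate 3 and also without knockout replicate 1.

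Of 17 measured neighbours of Cdkn1c, Cdkn2a and Cdkn2b, 8 had positive and 9 negative changes (median -0.04, 0 past the threshold in limma, 4 with an unadjusted p under 0.05). Kcnq1ot1, the long non-coding RNA whose transcription silences Cdkn1c on the paternal chromosome, had levels of 8.95 ± 0.30 and 9.41 ± 0.16 (SD, n = 3 each) and a change of 0.47 (SE 0.16, adjusted p = 0.285), with overlapping groups. Igf2, a growth factor gene of the adjoining imprinted domain on chromosome 7, had a change of 1.39 (SE 0.26, adjusted p = 0.107). Ins2 had a change of -0.25 (SE 0.09), at a level (5.15 and 4.90) within the range of absent sex-linked genes. Among other listed neighbours of Cdkn1c, Slc22a18, Phlda2 and Kcnq1 had changes of -0.24 (SE 0.15), -0.07 (SE 0.13) and 0.002 (SE 0.12). The level of Phlda2 lay within that range too.

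**Figure D4:**
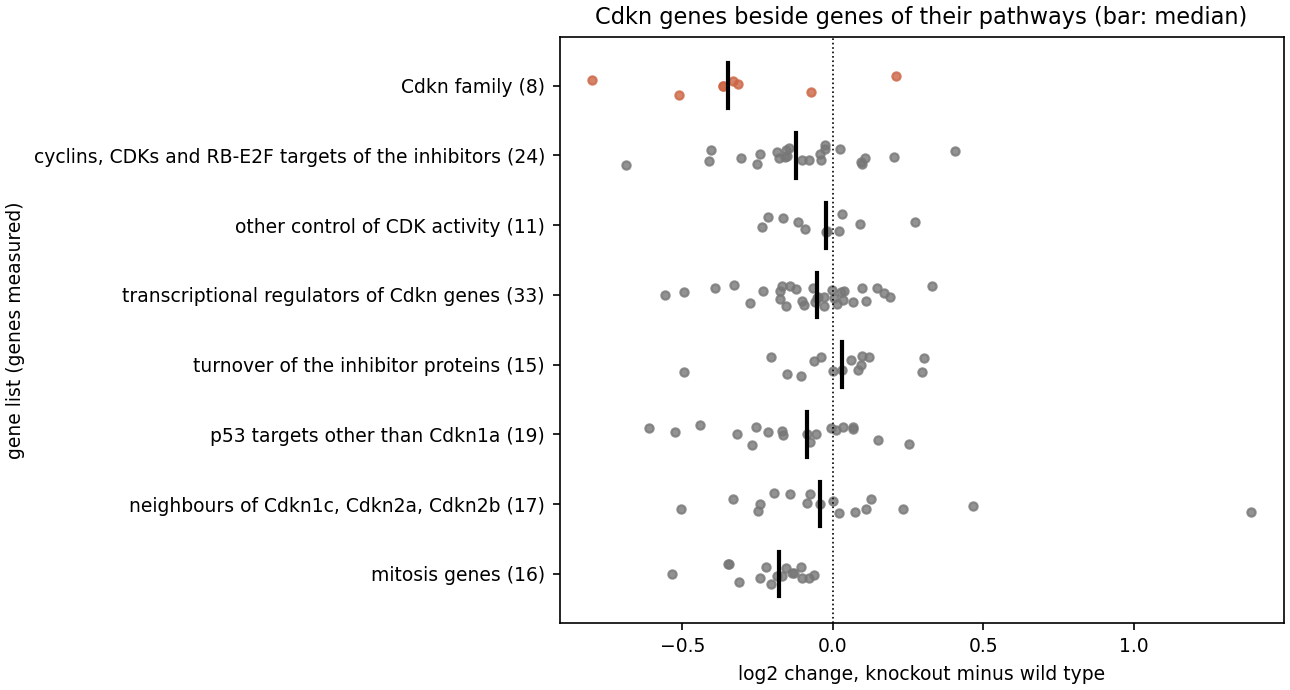
Log2 change (knockout minus wild type) of every measured gene of the Cdkn family and of 7 related gene lists, 1 point per gene, with a bar at the median; the number of genes stands beside each name. The family has a median of -0.35 (-0.43 to -0.28 with 1 array left out), the mitosis genes one of -0.18 (-0.24 to -0.08), the cyclin, CDK and RB-E2F genes one of -0.12 (-0.17 to -0.07) and the p53 targets one of -0.09 (-0.17 to -0.05), so the order of the last 3 is not settled. Marker lists are not shown. Those of microglia (-0.39), oligodendrocyte lineage (-0.32) and progenitors (-0.30) had medians close to that of the family, and the other marker lists had medians of -0.17 to 0.60.

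Markers of other cells in the tumours were read on the same arrays. Of 12 microglia and macrophage markers, 11 had negative changes (median -0.39, 8 with an unadjusted p under 0.05, 0 past the threshold in limma), and their mean level was 9.30 to 9.52 in wild type and 8.93 to 9.22 in knockout tumours, without overlap. Fcgr3 and Ctss had changes of -0.79 (SE 0.14) and -0.57 (SE 0.11). The list was not uniform: P2ry12 and Tmem119 were at -0.03 (SE 0.12) and -0.06 (SE 0.11). Cd68, the positive one, was at 0.11 (SE 0.19). Knockout replicate 3, the tumour with the lowest Cdkn1a and Cdkn2c, had the lowest mean of all 6 arrays in this list (8.93) and in the mitosis list (10.11), and in 8 of the 16 pathway and marker lists in all. None of the microglia markers lay at the level of absent genes. Their part in the Cdkn1a and Cdkn2c values was not tested.

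Progenitor markers had 8 negative and 4 positive changes of 12 (median -0.30, 10 with an unadjusted p under 0.05, 0 past the threshold in limma), with mean levels of 10.44 to 10.63 in wild type and 10.62 to 10.75 in knockout tumours. Insm1, a zinc finger factor of dividing progenitors, had a change of -0.51 (SE 0.10), the Hedgehog target Hhip one of 1.46 (SE 0.22) and Atoh1 one of -0.28 (SE 0.16). The largest change of this list was that of Mfap4, at 2.35 (SE 0.48, limma adjusted p = 0.129), with the groups apart. Markers of differentiating granule neurons, in which Cdkn1b and Cdkn2d are known to be high, had 7 positive and 7 negative changes of 14 (median 0.03). Their mean level was 9.80 to 9.85 in wild type tumours and 10.37, 9.84 and 10.48 in knockout replicates 1, 2 and 3, with Neurod1 at -1.13 (SE 0.23) and Syt1 at 1.02 (SE 0.26). The largest changes of this list were those of Gabra6 (2.72, SE 0.93) and Cbln3 (2.29, SE 0.65), each with overlapping groups. With 1 array left out the median ran from -0.10 to 0.18.

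Oligodendrocyte lineage markers had 8 negative and 1 positive change of 9 (median -0.32). Their mean level was 8.76 to 9.42 in wild type and 8.74 to 8.94 in knockout tumours, and the groups overlapped. Pdgfra was at -0.45 and Sox10 at -0.69, the latter with overlapping groups. Mbp, Cnp, Mag and Mog were at -0.16 (SE 0.19), -0.17 (SE 0.29), -0.06 (SE 0.43) and 0.06 (SE 0.20). Markers of astrocytes and Bergmann glia had 8 positive changes of 10 (median 0.40), with Aldoc at 1.47 and Gja1 at 1.50, each with overlapping groups. Fabp7 and S100b were at 0.10 and 0.21, and the negative ones, Sox9 and Slc1a2, at -0.34 and -0.16. The mean level of this list was 9.76, 9.64 and 10.59 in wild type replicates 1, 2 and 3. It was 10.43 to 10.58 in knockout tumours, so wild type replicate 3 stood apart from its group. The median was 0.63 without that tumour, and leaving out wild type replicate 1 or 2 instead gave 0.26 or 0.23. Markers of Purkinje cells and inhibitory neurons had 7 positive changes of 8 (median 0.60, 7 of 8 with an unadjusted p under 0.05; mean level 7.07 to 7.77 and 7.66 to 8.44). Lhx1, the negative one, was at -0.49 and Gad1 at 0.47, and the largest changes were those of Calb1 (2.42), Car8 (1.16) and Pvalb (1.14), each with overlapping groups. Endothelial and pericyte markers had 9 positive changes of 12 (median 0.18), with Col4a1 at 0.63 and Tek at 0.50. Pecam1 and Cdh5 were at 0.02 and 0.06, and the negative ones, Cldn5, Tie1 and Flt1, at -0.18, -0.08 and -0.08. Fibroblast and meningeal markers had 7 positive changes of 8 (median 0.15), with Igf2 at 1.39 and Foxc1 at -0.45. With 1 array left out the medians of both lists ran from 0.09 to 0.32 and from 0.09 to 0.30. Lymphocyte markers had 4 negative changes of 5 (median -0.17; 6.27 to 6.42 and 6.10 to 6.18), with Cd79a at -0.32 and Ptprc at -0.48 and Ms4a1 at the level of absent genes. In these lists 0 genes passed the threshold in limma. Their part in the Cdkn values was not tested.

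The genes whose profiles over the 6 arrays were nearest to those of Cdkn1a and Cdkn2c, the members with the largest differences, were taken by the distance defined above. Nearest to Cdkn1a were the zinc finger gene Zfp526 (0.12), the cadherin Cdh4 (0.13), the semaphorin receptor Plxnd1 (0.14), the pro-apoptotic gene Hrk (0.14) and Sned1 (0.14). Their log2 changes were -0.81, -0.83, -0.72, -0.56 and -0.76, against -0.80 for Cdkn1a. Nearest to Cdkn2c were Nckap5l (0.03), Ppifos (0.05), the spindle protein gene Fam83d (0.05), the transcription factor Tshz2 (0.05) and Shisa2 (0.06), with log2 changes of -0.51, -0.48, -0.56, -0.52 and -0.45. None of the 10 passed the threshold in limma, with adjusted p-values of 0.0975 to 0.276. The values of some depend on the processing. Under 16 alternatives, including other rules for genes with several features, Tshz2 ran from -1.005 to -0.41 and Cdh4 from -0.93 to -0.54. With 22180 genes and 6 arrays many profiles are alike, so nearness is a description only.

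**Figure D5:**
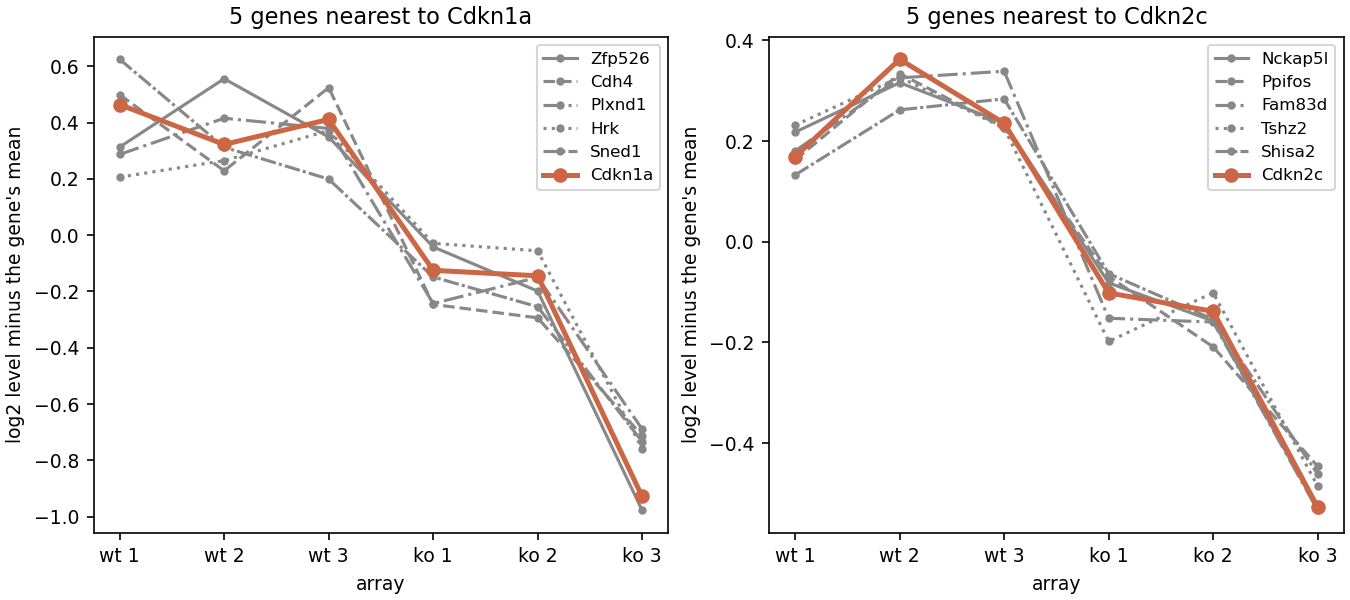
Log2 level minus the gene's mean over 6 arrays for Cdkn1a (left) and Cdkn2c (right), in orange, with the 5 genes of the most similar profile in grey; wt and ko mark wild type and knockout replicates. In both panels knockout replicate 3 is the lowest array for all the genes shown.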

How the data were processed

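Samples were grouped by their titles. The values deposited by the authors are log2 levels from RMA (oligo package), per the submitters' processing notes. Neither the versions nor the genome build of the array is given in the sources used here. RMA compresses changes of dim genes and removes changes shared by most genes. Array medians were 6.91 to 7.00. Precision is limited by the number of arrays. Of 41345 features, 23521 had 1 platform symbol, and each of 22180 genes was read from its feature of highest mean, whatever its level. Each Cdkn gene had 1 such feature, so the planned fit of their other features gave no values.

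Groups were compared by two-sided moderated tests in limma 3.58.1 (R 4.3.3; lmFit, then eBayes with no trend). P-values were adjusted by Benjamini-Hochberg across the 22180 genes, with a threshold of 0.05, and intervals are 95%. The fit was tested on simulated data. Lists are described by counts and medians, without a set test, and their counts with 1 array left out were added after seeing the data. The members, lists and alternatives were chosen with earlier results of these data known. The genes named were all members, the 3 genes of each pathway list and 2 of each marker list with the smallest p, 8 further cell cycle and lineage genes, and the 5 profiles nearest to 2 members, predicted genes left out. Suz12, Mtap, Dmrta1, Slc22a18, Phlda2, Mfap4, Gabra6, Cbln3, Calb1, Car8, Pvalb and the p53 targets near 0 were named after their values were seen. So were Eed, Ring1, Rnf2, Bmi1, Cbx7, Kcnq1, P2ry12, Tmem119, Cd68, Pecam1, Cdh5, Cldn5, Tie1 and Flt1. Mbp, Cnp, Mag, Mog, Sox9, Slc1a2, Fabp7 and S100b were also named after their values were seen. Promoter windows are from RefSeq. Deviations from the group mean correlated over genes by -0.03, 0.05 and 0.10 between same-numbered tumours. Between tumours of different number the correlations ran from -0.14 to 0.11. With 3 arrays per group these values cannot settle whether the numbers pair the tumours.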

Additional observations from a re-analysis of the deposited data

How the results depend on the processing

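Under 16 alternatives (scaling, dim genes left out, other variance models, weighted arrays, other rules for genes with several features, a replicate block, X and Y genes left out, and each array left out), 127 of 128 log2 changes of the Cdkn genes kept their sign and 0 passed the threshold. The exception was Cdkn3, whose log2 change ran from -0.16 to 0.022 with 1 array left out, positive without knockout replicate 2. The count of Cdkn genes past the threshold was 0 in every fit, also at an adjusted p of 0.1. The log2 change of Cdkn1a ranged from -0.94 to -0.53 and that of Cdkn2c from -0.59 to -0.38, and the family median from -0.43 to -0.28. Cdk4 changed sign, to -0.0057 with arrays centred on their medians and, within a range of -0.019 to 0.068 with 1 array left out, without knockout replicate 2. Cdk6 ranged from -0.17 to 0.050 with 1 array left out and was positive without wild type replicate 1. Of the other genes named, Crebbp, Ccnd2, Hhip, Neurod1, Syt1 and Gja1 passed the threshold in some of these fits. Over all genes, 46 passed, against 107 with a variance trend, 12 with the replicate block and 131 at an adjusted p of 0.1, and 4 to 128 with 1 array left out (4 without knockout replicate 3, 12 and 18 without wild type replicates 1 and 2, 15 without knockout replicate 1, 99 without wild type replicate 3, 128 without knockout replicate 2). Whether the replicate numbers pair the tumours is not known. No Cdkn gene passed without the block, so it had no call to remove, and none passed with it. With 1 array left out, the median of the progenitor markers ran from -0.36 to -0.22, the latter without knockout replicate 3. That of regulators of Cdkn transcription ran from -0.08 to -0.03. The median ran from -0.06 to 0.0025 for other control of CDK activity and from -0.26 to -0.11 for lymphocyte markers. The causes of these shifts were not tested.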
